A study of Mus musculus with 2 samples.

Results

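The transcripts described here are the 1655 transcripts that GENCODE types as nonsense-mediated decay (NMD) in 1030 expressed genes of mouse erythroblasts, which are red cell precursors that still have a nucleus. They were chosen by their annotated type and selected on the measured level of their gene. A protein-coding nuclear gene had to hold at least 100 expected counts in both gene tables, which 4627 genes did. Those genes have 24327 transcripts in the tables, of which 13044 are typed protein_coding, 5603 retained_intron and 3606 processed_transcript. All protein-coding nuclear genes together have 4678 NMD transcripts, among 103639 Ensembl transcripts in the tables. At the edge of the gene minimum, Nucb2 lay just inside with 112 and 100 counts, and Rragc just outside with 176 and 99. Of the 1030 genes, 659 hold 1 NMD transcript and 371 hold 2 or more, up to 13 in Tmem234.

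Total RNA of primary erythroblasts from male adult C57BL/6J mice aged 5 to 6 weeks was sequenced in 2 libraries, with an input of 1 ng and added spike-in transcripts. The labels call them biological replicates 1 and 2 and give each its own biosample under 1 donor entry, so it is unknown whether different animals were used. There is 1 group of samples, with no second genotype, treatment or time, so no test between conditions was possible and the SD over 2 libraries may be technical. An expected count is an estimated number of reads, in which reads that match several transcripts are shared out. A transcript's share is its TPM (a transcript level scaled by length and by the library's total) as a percent of the summed TPM of all transcripts of its gene.

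NMD is the cytoplasmic surveillance pathway that degrades mRNAs on which translation ends too early. During splicing an exon junction complex is left just upstream of each exon junction, and a ribosome that stops well before the last junction leaves complexes in place that recruit Upf1 and the Smg proteins. Many genes of splicing regulators use this route to limit their own level, by including a "poison" exon with a stop codon or by splicing an intron after the normal stop. Erythroblasts remodel their RNA strongly as they mature.

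The sequences that carry the stop codon are shown first, since they are what makes these transcripts NMD targets in the annotation. All are from GENCODE transcripts on mm10, read 5′ to 3′ on the gene's strand, with the annotated stop codon in capitals. The first set runs from the first base of an exon that the leading coding transcript of the gene lacks to the stop codon inside that exon. The leading coding transcript is the protein_coding transcript with the highest mean TPM. Srsf3, Srsf6 and Tra2b encode SR proteins, which promote exon inclusion. Rps19 encodes a protein of the small ribosomal subunit, Ermap an erythroid membrane protein of the butyrophilin family, and Slc25a38 the mitochondrial glycine carrier used in heme synthesis. Atp5f1 encodes a subunit of the mitochondrial ATP synthase. Atp5f1-203 and Tra2b-206 were chosen after their values were seen, and the rest by the naming rule. The exon lies on the plus strand in Srsf3-201, Srsf6-201, Rps19-205 and Slc25a38-206, and on the minus strand in Tra2b-206, Ermap-207 and Atp5f1-203.
Srsf3-201, exon chr17:29039454-29039909: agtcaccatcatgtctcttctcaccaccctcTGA
Srsf6-201, exon chr2:162932815-162933082: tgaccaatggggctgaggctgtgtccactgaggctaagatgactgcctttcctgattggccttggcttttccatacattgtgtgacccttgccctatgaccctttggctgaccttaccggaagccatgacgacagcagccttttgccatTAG
Tra2b-206, exon chr16:22258986-22259261: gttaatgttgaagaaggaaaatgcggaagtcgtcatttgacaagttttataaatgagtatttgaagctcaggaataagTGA
Rps19-205, exon chr7:24886107-24886187: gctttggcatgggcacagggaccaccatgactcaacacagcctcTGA
Ermap-207, exon chr4:119188176-119188321: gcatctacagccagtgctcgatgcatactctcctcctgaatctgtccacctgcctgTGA
Slc25a38-206, exon chr9:120119883-120120005: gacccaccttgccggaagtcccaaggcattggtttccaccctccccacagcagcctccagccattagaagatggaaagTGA
Atp5f1-203, exon chr3:105957870-105958036: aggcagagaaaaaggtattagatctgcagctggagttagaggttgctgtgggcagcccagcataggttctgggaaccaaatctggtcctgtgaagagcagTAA

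In Srsf3-201 the stop falls 34 bases into an exon of 456 bases, and in Ermap-207 it falls 59 bases into an exon of 146 bases. For Srsf3-201 the length in the tables differs from that in the later GENCODE release used for structure and sequence. The exon of Srsf6-201 has 268 bases, that of Tra2b-206 276 and that of Atp5f1-203 167. The exons of Srsf3-201, Tra2b-206, Rps19-205 and Slc25a38-206 are multiples of 3 in length, and those of Srsf6-201, Ermap-207 and Atp5f1-203 are not multiples of 3.

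The second set shows the 27 coding bases before the stop codon of transcripts set apart from the coding transcript in other ways. Gpcpd1-212 has the highest counts of all members. Ppia-201 uses another splice site and stops early. Srsf2-204 and Hnrnpd-208 end at the same stop codon as their leading coding transcript and have junctions after it. Rpl12-201 uses another splice site in a gene of the large ribosomal subunit. The last base of the stop codon is at position 132550519 of chromosome 2 on the minus strand in Gpcpd1-212, 6418243 of chromosome 11 on the plus strand in Ppia-201, and 116852028 of chromosome 11 on the minus strand in Srsf2-204. It is at position 99962545 of chromosome 5 on the minus strand in Hnrnpd-208 and 32962596 of chromosome 2 on the plus strand in Rpl12-201.
Gpcpd1-212: gctcacactcgagggtctggaggaagaTGA
Ppia-201: caaagacagcagaaaactttcgagctcTGA
Srsf2-204: ccagaagaagagggagcagtttcttccTAA
Hnrnpd-208: ggacatcaaaatagctacaaaccatacTAA
Rpl12-201: gggtctgtctccgaagaaagttggcgaTGA

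**Figure D1:**
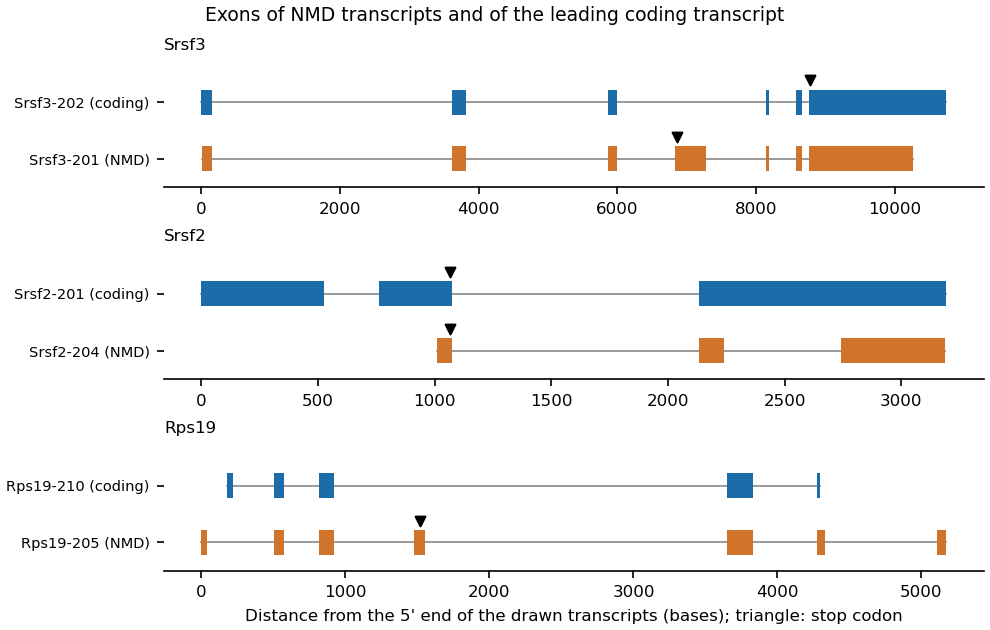
Exons of 3 NMD transcripts (orange) drawn on the same scale as the leading coding transcript of the gene (blue); the x axis is the distance in bases from the 5′ end of the drawn transcripts, and triangles mark stop codons. Srsf3-201 and Rps19-205 stop inside an exon the coding transcript lacks, whereas Srsf2-204 stops where Srsf2-201 does and has 2 junctions after the stop; no stop is annotated for the coding transcript Rps19-210.

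The exon drawings place the stop of Srsf3-201 in the added exon with 3 junctions after it, 548 bases before the last one. The stop of Rps19-205 also has 3 junctions after it and lies 273 bases before the last. Srsf2-204 starts inside a coding exon of Srsf2-201 in the annotation and holds 56 coding bases, against 663 in Srsf2-201.

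The same features were counted over all members. A stop codon is annotated for 1654 of them, and in 1636 it lies over 50 bases before the last exon junction. The median distance was 339.5 bases and the median number of junctions after the stop was 3. There was 1 junction after the stop in 385 members and 10 or more in 216. Among leading coding transcripts, 2 of 991 with an annotated stop had it over 50 bases before the last junction. The annotation assigns the NMD type by a rule of this kind, so this split describes the labels and is no finding. A stop codon was read from sequence in 1561 members: TGA made up 55.2%, TAA 25.2% and TAG 19.7%. In 992 leading coding transcripts these shares were 49.9%, 27.5% and 22.6%. The annotation also gives a transcript support level, from 1 for the best supported models to 5 for the weakest. It was 1 in 495 members and 5 in 669. Level 5 includes Ppia-201, Unc5cl-202 and Btnl10-204, and level 1 includes Gpcpd1-212, Brpf3-206 and Usp7-206.

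Compared with the leading coding transcript, 389 members differed by splice sites alone, 339 by added exons alone, 337 by skipped exons alone and 383 by several kinds of event. A further 155 differed at the transcript ends only, 27 by an intron spliced out of an exon and 20 by an intron kept. Of the 906 members that share the coding start of the leading coding transcript, the median stopped after 27.9% of that transcript's coding length. An added exon holds the stop in 366 members. These exons had a median of 120.5 bases, and 35.0% were multiples of 3 in length. In 68 members, 25 of them detected, the stop was the same as that of the leading coding transcript.

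The NMD transcripts together held 70930 expected counts in replicate 1 and 107327 in replicate 2, of 780360 and 1205757 in their genes. By TPM this was 10.9% and 10.8% of the level of these genes (mean 10.9% ± 0.085, SD, n = 2). In the same genes, protein_coding transcripts held 61.4% and 61.8% of TPM, retained_intron transcripts 21.4% and 21.6%, and processed_transcript entries 6.04% and 5.62%. The pooled share differed little between the libraries while single transcripts differed much more.

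By TPM the median gene had an NMD share of 0.0956% in replicate 1 and 0% in replicate 2. With the posterior mean of TPM, another estimate that the authors deposited, the median over genes was 4.71%, so the low median depends on the estimate. The share was 0 in both libraries in 413 genes and above 0 in both in 363. It reached 5% in both libraries in 258 genes, 10% in 198, 20% in 141, 50% in 49 and 90% in 7. Tmem234, the gene with the most NMD transcripts, had a summed share of 24.7% and 12.2%, and none of its NMD transcripts was detected in both libraries. Traf7, an adaptor protein with ubiquitin ligase activity, had 9 NMD transcripts and a summed share of 0% in both.

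**Figure D2:**
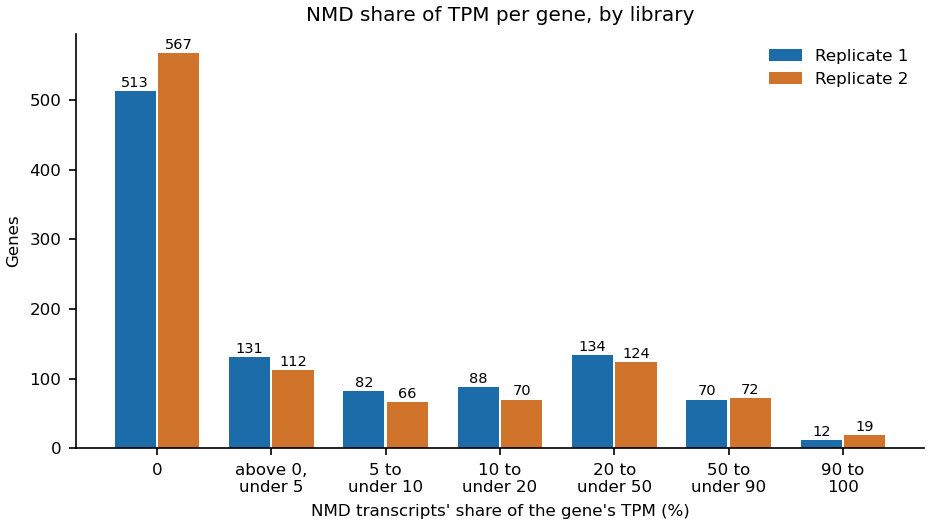
Number of the 1030 genes (y axis) in each range of the summed NMD share of the gene's TPM in percent (x axis), with bars for replicate 1 in blue and replicate 2 in orange. The bin at 0 holds 513 and 567 genes, and 82 and 91 genes reach 50% or more.

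A transcript was called detected at 10 or more expected counts in both libraries. Of the 1655 members, 289 (17.5%) in 267 genes were detected, against 33.2% of all transcripts of the genes past the minimum. Within the member genes, 34.4% of protein_coding, 25.4% of retained_intron and 11.8% of processed_transcript entries were detected. Counts were 0 in both libraries for 858 members, and 402 had counts in 1 library only. Detected members had a median of 79.9 counts in replicate 1 and 139 in replicate 2, and a median share of 21.1% and 23.2%. By kind of event, 72 of the 389 members with altered splice sites were detected, 50 of the 337 with skipped exons and 44 of the 339 with added exons.

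The highest counts belonged to a gene of phospholipid breakdown. Gpcpd1, which encodes a glycerophosphodiester phosphodiesterase that releases choline, had 14471 and 23683 counts. Gpcpd1-212 held 5570 and 8078 of these, a share of 40.0% in replicate 1 and 35.2% in replicate 2 (mean 37.6% ± 3.39, SD, n = 2). Gpcpd1-213 held 1865 and 3763 counts, a share of 12.7% and 15.5%. Both shares were therefore of like size in the 2 libraries, and Gpcpd1-212 lay above the leading coding transcript Gpcpd1-201, at 20.6% and 21.4%. Neither NMD transcript has an exonic base outside the coding transcripts of the gene, and both hold a complete coding frame of a coding transcript, so their counts rest on how shared reads were divided.

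Among the other members with the highest counts, Mfsd2b-202 belongs to the sphingosine-1-phosphate exporter of red cells. Its counts were 1319 and 1538, and its share was 79.4% and 74.6%. It has 632 bases outside the coding transcripts, and its leading coding transcript Mfsd2b-204 held 3.55% and 5.17%. Mfsd2b-202 therefore took most of the gene's TPM in both libraries. Cdr2-202, from a gene of a coiled-coil protein that is a target of antibodies in cerebellar degeneration, had 2896 and 4001 counts and a share of 73.8% and 70.8%. Its length in the tables differs from that in the later annotation. Usp7-206, from the gene of a deubiquitinating enzyme that acts on Mdm2, had 2834 and 4250 counts and a share of 34.7% and 30.02%. By expected count, which is not divided by transcript length, its mean share was 61.4%.

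Ppia-201, from the gene of cyclophilin A, had 2084 and 3302 counts and a share of 86.7% and 90.3%. It has 5 bases outside the coding transcripts in the tables, and the later annotation lists 1 coding transcript of Ppia that the tables lack. Brpf3-206, from the gene of a scaffold of histone acetyltransferase complexes, had 3198 and 3695 counts and a share of 82.6% and 89.7%. It holds a complete coding frame, and 4 annotated coding transcripts of Brpf3 are not in the tables. The length of Brpf3-206 in the tables also differs from that in the later annotation. Btnl10-204, from a butyrophilin-like gene, had 1203 and 2086 counts and a share of 38.4% and 46.1%, and its coding frame is that of Btnl10-202. These 3 members held from 38.4% to 90.3% of their gene's TPM. Ypel4-202 had a share of 24.1% and 27.9%. Gm42715-201, which the tables place in Srcap, the gene of a chromatin remodelling ATPase, had 23.6% and 29.1%, and by expected count a mean of 47.6%.

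A member was the leading transcript of its gene in 68 genes, with the highest TPM in both libraries, ties included. Detected members made up 67 of them. Of the 68, 7 hold a complete coding frame and 5 are the only transcript of their gene in the tables. Those 5, in Arid5b, Gm20716, Gtpbp4, Hspbap1 and Sass6, have a share of 100% by construction, and 4 of the genes have a coding transcript in the later annotation. Leaving out these kinds and the undetected member, 55 remained, of which 16 have at least 50 bases outside the coding transcripts and 24 have none. For the latter, short reads tell NMD from coding transcripts only through exon junctions and estimation.

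Besides these 5, the naming rule took the members with the highest mean share. Trub2-205, from the gene of a mitochondrial RNA pseudouridine synthase, had 327 and 551 counts and a share of 97.6% and 100%. It skips an exon of 62 bases and has 1426 bases outside the coding transcripts. Rnf114-203, from a ubiquitin ligase gene, skips an exon of 151 bases and had a share of 86.5% and 89.8%. Unc5cl-202 had 87.2% and 88.6%. By TPM all 3 were above 80% in both libraries. By the posterior mean of TPM Trub2-205 had 77.6% and 85%, Rnf114-203 85.9% and 88.8%, and Unc5cl-202 81.1% and 85.3%. Neither Rnf114-203 nor Unc5cl-202 has a base outside the coding transcripts, so their shares rest on how shared reads were divided.

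Other leading members were chosen after their values were seen. Atp5f1-203, with the added exon printed above, had 514 and 1036 counts and a share of 79.5% and 84.3% (mean 81.9% ± 3.40, SD, n = 2). Its leading coding transcript Atp5f1-201 held 12.7% and 5.71%. Mdh2-203, from the gene of mitochondrial malate dehydrogenase, had 288 and 511 counts and a share of 80.7% and 76.2%. Mdm2-209, from the gene of the ubiquitin ligase of p53, had 240 and 268 counts and a share of 68.3% and 62.3%. The libraries differed by under 10 percentage points in each of these 3. Mdh2-203 and Mdm2-209 have 7 and 0 bases outside the coding transcripts, whereas Atp5f1-203 has 167.

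Genes of SR proteins and related splicing factors were described as a group, since autoregulation by NMD is best known there. Of the listed genes, 19 passed the minimum and 14 of them hold 36 NMD transcripts. Of these 36, 12 were detected (33.3%, against 17.5% of all members), and 13 had 0 counts in both libraries, against 858 of 1655. The summed NMD share of TPM reached 10% in both libraries in 4 of the 14 genes, Srsf2, Srsf1, Luc7l2 and Son, against 198 of 1030. Luc7l had a share of 0 in both, but by the posterior mean of TPM Luc7l-206 had 16.5% and 1.205%. No test of the group was made.

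Srsf2-204 had 253 counts in replicate 1 and 536 in replicate 2, and its share was 49.7% and 50.5% (mean 50.1% ± 0.540, SD, n = 2). The coding transcript Srsf2-201 held 40.1% and 43.3%. The NMD form was higher than the coding form in both libraries. It is a short annotated transcript of 620 bases, all of them within coding transcripts, so its share by expected count was lower, at 21.6% on average. Srsf1-204, of 896 bases, had 164 and 406 counts and a share of 28.9% and 30.9%, and its mean share by expected count was 7.86%. TPM divides by transcript length, so a short transcript weighs more by TPM than by count.

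The SR transcripts with poison exons lay lower in share of TPM. By expected count Srsf3-201 had 8.44% in replicate 1, above Srsf1-204 at 6.64%. In replicate 2 the order was the reverse, with Srsf3-201 at 4.25% and Srsf1-204 at 9.08%. Srsf3-201 had 117 and 99.2 counts, a share of 8.34% in replicate 1 and 3.95% in replicate 2. Its exon lies outside the coding transcripts over all 456 bases. Srsf6-201 had 32.8 and 21.2 counts and a share of 8.98% and 4.23%, and by expected count a mean share of 3.13%. Srsf6-201 also holds a complete annotated coding frame. Tra2b-206 had 27.02 and 29.6 counts and a share of 6.02% and 3.94%. All 3 shares were higher in replicate 1, and all were under 10% in both libraries. Luc7l2-202, from the gene of a U1 snRNP-associated protein, had 195 and 439 counts and a share of 16.8% and 25.9%. Son-212, from a gene that supports splicing of weak introns, had 410 and 803 counts and a share of 8.11% and 10.6%. These 2 have 2593 and 2756 bases outside the coding transcripts.

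The hnRNP proteins, which often act against SR proteins, and other splicing regulators were counted in the same way. Of the genes whose symbol starts with Hnrnp and the other listed regulators, 47 passed the minimum and 20 of them hold 50 NMD transcripts. Of these, 7 were detected (14.0%, against 17.5% of all members), and 30 had 0 counts in both libraries, against 858 of 1655. The summed share of TPM reached 10% in both libraries in 2 of the 20 genes, Hnrnpd and Tardbp, against 198 of 1030.

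Hnrnpd encodes a protein that binds AU-rich elements and promotes mRNA turnover. Hnrnpd-204 and Hnrnpd-208 carry an added exon of 107 bases and end at the stop of the leading coding transcript. Hnrnpd-208 had 114 and 220 counts and a share of 28.2% and 42.6%. Hnrnpd-204 had 66.8 and 54.7 counts and a share of 28.9% and 18.6%, and its mean share by expected count was 9.96%. The first was higher in replicate 2 and the latter in replicate 1, while all NMD transcripts of Hnrnpd summed to 57.1% and 61.2%. Tardbp encodes an RNA-binding protein that controls its own level through its 3′ UTR. Tardbp-208 had 49.6 and 59.7 counts and a share of 18.5% and 14.9%, and by expected count 8.71% and 6.27%. Tardbp has 10 NMD transcripts, and no other was detected in both libraries.

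Tial1-204, from the gene of a U-rich RNA-binding protein, had 58.0 and 21.7 counts and a share of 15.2% and 2.76%. Khdrbs1-202 had 15.7 and 19.2 counts and a share of 9.00% and 5.11%. Tial1-204 and Khdrbs1-202 each hold a complete annotated coding frame. Clk1 encodes a kinase of SR proteins, and Clk1-211, which skips exons of 91 and 167 bases, had 387 and 452 counts and a share of 5.44% and 4.38%. Of these 3, Tial1-204 differed most between the libraries. Hnrnpk-203 had 0 counts in both libraries, although Hnrnpk had 1391 and 2130. A count of 0 allows up to 3 counts, which is a share of up to 0.706% in replicate 1 and 0.364% in replicate 2. Such limits cover counting error only and not how shared reads were divided. Rbm25-208 and Rbm25-210 were also at 0, with Rbm25 at 909 and 1214 counts.

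**Figure D3:**
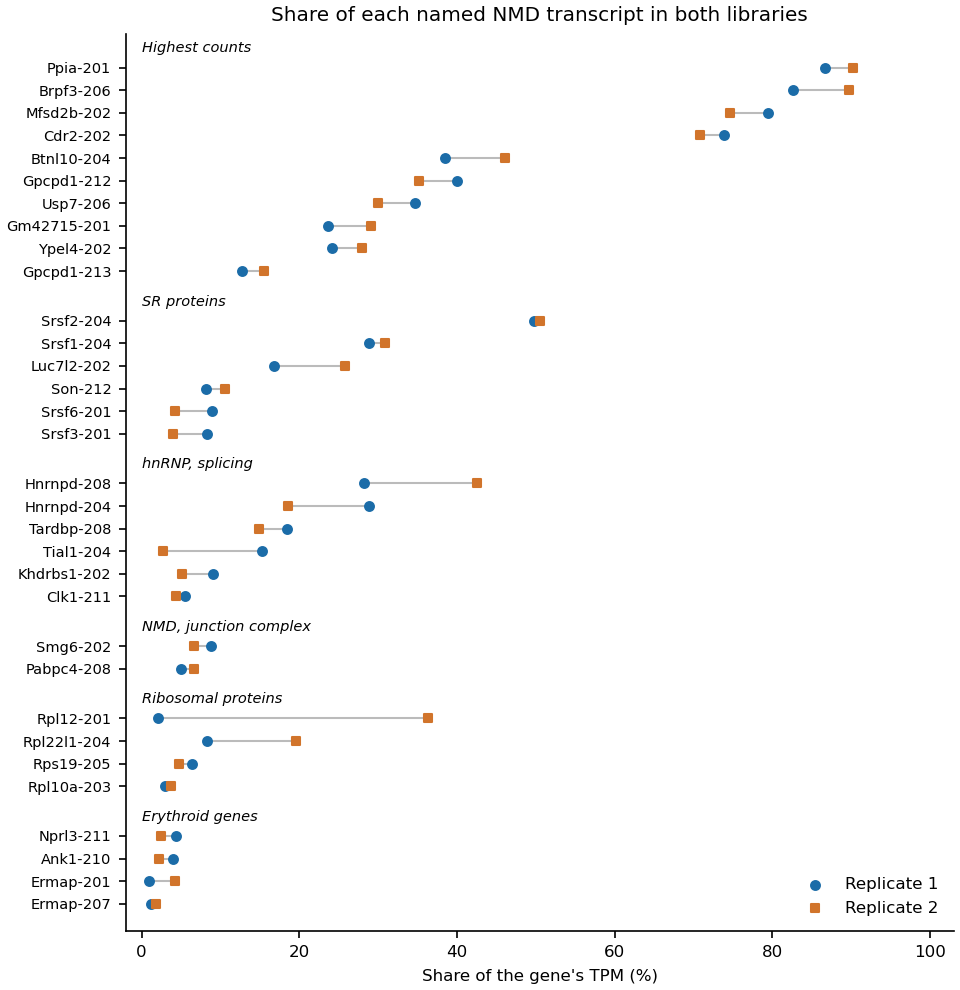
Share of the gene's TPM in percent (x axis) of each NMD transcript named for its counts or its gene group and above 0 in both libraries (y axis), with a circle for replicate 1, a square for replicate 2 and a line between them. Srsf2-204 has nearly the same share in both, at 49.7% and 50.5%, while Rpl12-201 lies at 2.11% and 36.3%.

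In the plot of named shares, the members with the highest counts lie between 12.7% and 90.3%. All named members of NMD factors and erythroid genes lie under 10% of TPM in both libraries. The former were picked by their counts and the latter from gene lists, so these ranges cannot be compared as gene groups.

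The factors of NMD and of the exon junction complex are themselves known targets of the pathway in many cells. Of 30 listed genes, 20 passed the minimum. Their median level was 1.23 TPM in replicate 1 and 1.47 in replicate 2, against 1.56 and 1.64 over all genes past the minimum. Upf1, the helicase at the centre of NMD, had 0.45 and 0.36 TPM from 144 and 171 counts. Smg6, the endonuclease that cuts NMD targets, had 3.88 and 3.57 TPM. Eif4a3, which anchors the junction complex on RNA, had 3.43 and 4.22 TPM. The levels of these 3 differed by under 1 TPM between the libraries.

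Of the 20 genes, 4 hold 1 NMD transcript each in the tables, against 1030 of 4627 over all genes past the minimum. Smg6-202 skips an exon of 62 bases and had 97.2 and 99.0 counts, a share of 8.76% and 6.70%. Pabpc4-208, from the gene of a cytoplasmic poly(A)-binding protein, had 93.2 and 149 counts and a share of 4.95% and 6.59%. Smg5-202 had 0 counts in both libraries, which allows a share of up to 3.40% and 2.22%. Smg1-204 had 0 and 2.53 counts. By TPM none of the 4 reached 10%, while by expected count Pabpc4-208 had 9.37% and 11.9%.

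Ribosomal protein genes are highly expressed in erythroblasts, and several are known to make NMD transcripts from introns that are spliced at other sites. Of 87 such genes past the minimum, 10 hold 1 NMD transcript each, against 1030 of 4627 genes over all. Of these 10, 4 were detected, against 289 of all 1655 members. Rps19-205 had 47.5 and 72.6 counts, a share of 6.33% and 4.70%. Rpl10a-203 had 27.5 and 54.6 counts and a share of 2.97% and 3.74%. These shares were low and of like size in both libraries. Rpl12-201 had 13.1 counts in replicate 1 and 502 in replicate 2, a share of 2.11% and 36.3%. Its posterior SD, the authors' estimate of the uncertainty of a count, was 15.1 and 73.3. Rpl22l1-204 had 24.4 and 95.5 counts and a share of 8.28% and 19.5%, and 3.96% and 14.2% by the posterior mean. Rpl27a-205 and Rps27l-206 were at 0 in both libraries. Single values here are uncertain. Reads of processed pseudogenes and of these genes can be exchanged in estimation, and whether that happened here was not tested.

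Of the listed erythroid genes, 70 passed the minimum and 6 of them hold 15 NMD transcripts, against 1030 of 4627 genes over all. Of the 15, 4 were detected (26.7%, against 17.5% of all members). None of the 6 genes reached an NMD share of 10% in both libraries, against 198 of the 1030, and 6 genes are too few to read anything from this. Ank1 encodes the ankyrin that links spectrin to band 3, and Ank1-210 had 735 and 542 counts, a share of 3.98% and 2.18%, and by expected count a mean share of 5.48%. Ermap had 15160 and 21399 counts, of which Ermap-201 held 142 and 924 and Ermap-207 held 27.4 and 58.5. Their shares were 0.900% and 4.22% for Ermap-201, and 1.19% and 1.88% for Ermap-207. Both were higher in replicate 2. By expected count the mean share of Ermap-207 was 0.227%. Ermap-201 has no base outside the coding transcripts, whereas the exon of Ermap-207 printed above lies outside them over 146 bases.

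Nprl3 encodes a subunit of a complex that restrains mTOR, and its introns hold enhancers of the alpha-globin genes. Nprl3-211 had 28.4 and 24.1 counts and a share of 4.35% and 2.46%, and by expected count 8.80% and 4.39%. Slc25a38-205 and Slc25a38-206 had 0 counts in both libraries, while Slc25a38 had 640 and 491 counts. For Slc25a38-206 this allows a share of up to 0.898% and 1.28%. Slc25a37, the mitochondrial iron importer, had an NMD share of 0.284% and 0.0114%. Abcg2, a porphyrin exporter outside the list and chosen after its values were seen, had a higher one: Abcg2-206 had 605 and 875 counts and a share of 26.4% and 23.9%.

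The labelled cell type was checked against markers. All 10 erythroid markers were above 1 TPM in both libraries and summed to 20966 and 22688 TPM, mostly globins. The 12 neutrophil-lineage markers were all above 1 TPM too and summed to 2052 and 2365 TPM, led by S100a9 at 664 and 831 TPM, and 8 of 9 monocyte and macrophage markers were, with 214 and 249 TPM. Of the B-lineage markers, 1 of 5 was above 1 TPM, and of the T and NK markers 1 of 4, with Cd3d and Cd8a at 0. In bulk RNA the number of cells and the RNA per cell cannot be told apart. The part of these other cells in the NMD shares was not tested. Of the markers listed, Mpo alone is a gene with an NMD transcript. Nuclear protein-coding genes held 4393962 and 6815842 of 80806663 and 117032607 total expected counts, which is the depth behind the shares.

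How well the shares repeat was read from the 256 members with a mean of at least 50 counts. A share counted as over 2 times apart when the log2 ratio of share plus 0.5 percentage points passed 1 in either direction. In 61 members (23.8%) the share was over 2 times higher in replicate 2, against 12.4% of the 7323 transcripts with such a mean in all genes past the minimum. In 27 members (10.5%) it was higher in replicate 1, against 9.76%. The median absolute log2 ratio was 0.59 for NMD transcripts, 0.23 for protein_coding, 0.42 for retained_intron and 0.43 for processed_transcript entries. Shares of protein_coding transcripts are higher, and a high share has less room for such a ratio. A transcript alone in its gene keeps the same share by construction, and such transcripts were not left out of the reference values. Among transcripts with a mean share under 50%, 42.1% of NMD and 44.4% of protein_coding transcripts were over 2 times apart. For retained_intron and processed_transcript entries it was 23.0% and 25.1%. These were not split by direction.

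Of the 88 members over 2 times apart, 23 had 0 counts in 1 library. The deposited posterior SD was 20% of the count or more in 66 of the 88, and in 37 of the 168 others. A library with 0 counts was left out of this comparison. Members at 0 in 1 library, such as Map2k3-203, can therefore fall among those with a smaller posterior SD. Among the 153 members with a smaller posterior SD, 14.4% were over 2 times apart and the median absolute difference in share was 6.99 percentage points, against 9.73 over all 256. Across these 153 transcripts the shares of the libraries had a Spearman correlation of 0.722, and across all 256 one of 0.587. These are descriptions across transcripts, some of which share a gene and its reads.

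**Figure D4:**
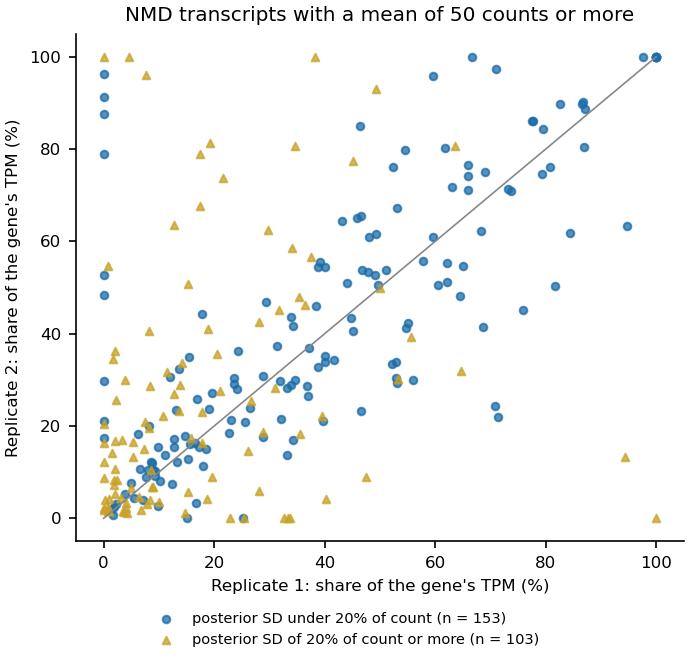
Share of the gene's TPM in percent in replicate 1 (x axis) and replicate 2 (y axis) of the 256 NMD transcripts with a mean of at least 50 counts; blue circles have a posterior SD under 20% of the count in each library with a count above 0, yellow triangles do not, and the line marks equal shares. Points along either axis are transcripts at 0 in one library, such as Map2k3-203 at 0% and 87.7%.

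The scatter of shares by library shows transcripts along both axes, and the naming rule took the 4 with the largest ratio in each direction. Their values chose them and are given as a description. Rab22a-203, from a gene of a vesicle GTPase, had 108 counts and then 0, a share of 100% and 0%, and the coding transcript Rab22a-201 held 0% and 100%. Ect2-212, from a gene needed for cytokinesis, had 166 and 0 counts and a share of 33.7% and 0%. Pcnp-205 had 134 and 0 counts and 33.3% and 0%, and Gnptab-206, from a gene of lysosomal enzyme tagging, 113 and 0 counts and 32.6% and 0%. Pcnp-205 holds a complete annotated coding frame. By the posterior mean of TPM the share of Rab22a-203 in replicate 1 was 39.1%. In all 4 the posterior SD in replicate 1 was 20% of the count or more. Ect2-212 has 80 bases outside the coding transcripts, and Rab22a-203, Pcnp-205 and Gnptab-206 have 0.

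In the other direction, Tmem123-203 had 0 and 426 counts, a share of 0% and 100%, and Tmem123-201 held 100% and 0%. Prpf39-202, from a gene of a splicing factor of the U1 snRNP, had 0 and 224 counts and a share of 0% and 96.2%. Nr2c2-205, from a nuclear receptor gene, had 0 and 207 counts and 0% and 91.3%, and Map2k3-203, from a MAP kinase kinase gene, 0 and 265 counts and 0% and 87.7%. By the posterior mean of TPM the share of Tmem123-203 was 9.30% in replicate 1 and 75% in replicate 2, and the posterior SD of its 0 counts was 27.3 counts. By the same estimate Prpf39-202 had 1.85% and 92.5%, Nr2c2-205 7.02% and 83.5%, and Map2k3-203 7.79% and 77.1%. The posterior SDs of these members in replicate 2 were 9.91, 6.04 and 19.1 counts. The coding transcripts Map2k3-201 and Nr2c2-201 held 88.7% and 80.9% in replicate 1, and 0% and 6.25% in replicate 2. Map2k3-203 and Nr2c2-205 have 0 bases outside the coding transcripts, Prpf39-202 has 332 and Tmem123-203 has 116. The gene's own counts were 424 and 426 in Tmem123 and 212 and 246 in Nr2c2. Junction reads were not analysed here.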

How the data were processed

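Each library came with a gene and a transcript table. Per the deposited read-me, the authors quantified a transcriptome alignment on mm10 with GENCODE M4; which aligner and quantifier were used was not given in the sources used here. Per the file headers, the deposited values are expected counts (estimated reads, multi-matching reads shared out), TPM scaled by the authors over all rows and rounded, a percent of the gene's TPM per transcript, and lengths in bases. The posterior mean of TPM and the posterior SD of the count are scores deposited by the authors. Transcript types, structures and sequences came from GENCODE M21, which is newer but on the same assembly, joined by transcript identifier without version. Of the 1655 members, 520 had the same version and 1562 the same length in both, and 9 lie under another gene in M21.

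Shares, means and SDs were computed in Python 3.11.15 with pandas 2.3.3, numpy 2.4.6 and scipy 1.17.1, and figures with matplotlib 3.10.9. The code was tested on simulated data. The design has 1 group, so no test was made. The members, gene lists and naming rule were chosen with earlier results of these data known. The rule named the 10 transcripts of highest mean count, the 10 of highest mean share with at least 50 counts in both libraries, the 4 largest share ratios in each direction, and, per gene list, up to 6 detected members of highest share and 2 genes at 0. Alternatives were other share units, gene minimums, detection thresholds and transcript filters.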

Additional observations from a re-analysis of the deposited data

How the results depend on the processing

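The main values, over 1655 transcripts in 1030 genes, were a median gene share of 0.0478% and a pooled share of 10.9%. There were 198 genes at 10% or more, 289 detected transcripts and 88 over 2 times apart. With the posterior mean of TPM the median was 4.71% and the pooled share 11.3%, and by expected count the pooled share was 9.00%. A gene minimum of 300 counts kept 774 transcripts in 463 genes. The median was then 1.22% and the pooled share 10.4%, with 95 genes at 10% or more, 176 detected and 53 apart. A minimum of 30 gave 307 of 1642 genes and a pooled share of 11.1%. No filter beyond a count above 0 gave 388 of 2228 genes and 11.3%. Transcripts of equal length in the tables and the annotation had a pooled share of 10.3%. The 754 transcripts in 564 genes with at least 50 bases outside coding transcripts gave a median of 0.154% and a pooled share of 7.55%. Of these genes 82 reached 10%, with 150 transcripts detected and 43 apart. With 1 library left out, genes at 10% or more ranged from 285 to 304, detected transcripts from 438 to 449, the median from 0% to 0.0956% and the pooled share from 10.8% to 10.9%, since 1 library then decided each call. A mean of at least 20 counts gave 187 transcripts apart. Of the 1636 transcripts with a stop over 50 bases before the last junction, 287 were detected.

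Filters change which transcripts are counted; the cause of the higher median with the posterior mean was not tested. Some alternatives were added after the data were seen. Keeping transcripts with a posterior SD under 20% of any count above 0 left 1115 transcripts in 778 genes. Of these, 127 genes reached 10%, 164 transcripts were detected and 22 were apart. Leaving out complete coding frames gave a pooled share of 9.84%. Of the 48 named shares above 0, 14 moved by over 1.5 times by expected count and 2 with the posterior mean. No paired analysis was possible because there is 1 group. The 2 libraries give no estimate of variation between animals, and low counts limit transcripts near 0. Where an NMD transcript has no bases of its own, its share rests on junction reads and estimation.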

Other observations

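Members outside the gene lists were also read, and those named here were chosen after their values were seen. Ddx5-208, from the gene of an RNA helicase, keeps an intron in which its stop lies and has 1265 bases outside the coding transcripts. It had 927 and 1485 counts and a share of 16.6% and 16.4%, nearly equal in both libraries. Prpf38b-204, from a splicing factor gene, has an added exon with the stop, and its share was 63.0% and 71.8% from 315 and 588 counts. Eif2a-207, from a translation initiation factor gene, had 170 and 388 counts and a share of 51.2% and 53.8%, and Psme1-209, from a gene of a proteasome activator, 185 and 247 counts and 57.8% and 55.8%.

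Ncoa4 encodes the receptor that carries ferritin to autophagosomes. Ncoa4-206 had 556 and 1920 counts and a share of 7.35% and 14.97%, with a posterior SD of 489 and 795 counts, so its level is poorly fixed by the reads. Qk-202, from the gene of an RNA-binding protein of the STAR family, had a share of 65.9% and 76.6%, and Glo1-201, from the glyoxalase gene, 65.9% and 71.2%. Both have another length in the tables than in the later annotation, which lists coding transcripts of these genes that the tables lack, 2 for Qk and 3 for Glo1.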
